A study of Mus musculus with 18 samples.

Results

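Ribosome occupancy across genes was examined in unstressed MIN6 cells, a mouse insulinoma line that is used as a model of the pancreatic β cell. The genes were those with at least 1 read in each of the 6 control libraries, of which 3 were mRNA-seq and 3 were Ribo-seq. This rule kept 9963 genes of the 15621 with a read in any control library and of the 17207 with a read in any of the 18 libraries of the series, and a further 1126 genes had reads in 5 of the 6. Control cells received the vehicle DMSO for 18 h, and the same line was treated with 200 µM cyclopiazonic acid (CPA), which blocks the pump that fills the endoplasmic reticulum (ER) with calcium, for 1 h (CPA1) or 18 h (CPA18). In each of 3 independent experiments a lysate was divided, so that poly(A)-selected RNA fragments (mRNA-seq) and nuclease-protected fragments from monosomes (Ribo-seq) were counted from the same cells. All libraries came from this 1 tumour-derived line, with no transgene or deletion named in the labels. The descriptions of both control libraries of experiment 2 name the opposite assay to their titles, and they were placed by their titles, which their source names and the column names of the tables share.

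An mRNA is read by several ribosomes at a time, and each of them shields a short piece of the coding sequence from nuclease, so that footprints count ribosomes on the message. Dividing footprints by the abundance of the same message gives its ribosome occupancy, which rises with initiation and also with slow elongation. Cells are known to hold some messages back from ribosomes, such as ferritin mRNA through a hairpin in its 5′ UTR that binds iron regulatory proteins and stress-response mRNAs through upstream reading frames. In β cells the demand on ribosomes is dominated by proinsulin, which is made on the ER and stored in secretory granules.

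The sequences of 2 known elements bear on the highest and the lowest genes, and they were read from RefSeq transcripts on GRCm38. Replication-dependent histone mRNAs are known to end in a stem-loop in place of a poly(A) tail. The stem-loop of 1 gene of each histone family is shown because the list of these genes had the highest median occupancy of all lists. Not all of the genes shown are among the highest, and H2ac10 is near the low end of the list. The capitals mark the letters of the stem-loop. It lies at chr13:23621777-23621802 (minus strand) in H1f4, at chr13:23534354-23534378 (plus strand) in H2ac10, at chr13:23573760-23573785 (minus strand) in H2bc7, at chr13:21718090-21718115 (plus strand) in H3c10 and at chr13:21735432-21735456 (plus strand) in H4c11.
H1f4: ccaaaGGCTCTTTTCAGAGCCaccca
H2ac10: ccaaaGGCTCTTTTCAGAGCCacca
H2bc7: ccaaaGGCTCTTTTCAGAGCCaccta
H3c10: tcaaaGGCTCTTTTCAGAGCCaccca
H4c11: ctaaaGGTCCTTTTCAGGACCacca
The motif GGNNCTTTTCAGNNCC, searched on the sense strand only, was found in the 3′ UTR of the main transcript of 54 of 9956 genes (0.542%), of which 44 are among the 57 replication-dependent histone genes listed here. Of the 10 others, 7 were called higher in the test below. They include H2bc22, H2bc23 and H4bc24, which are histone genes outside the list and are named after their values were seen.

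The iron response elements of the 2 ferritin mRNAs are shown because these mRNAs were among the lowest of all genes. The capitals mark the bulged C, the 5 bases of the upper stem and the first 5 bases of the loop. The stretch lies at chr19:9982730-9982757 (plus strand) in the 5′ UTR of Fth1, at chr7:45459782-45459809 (minus strand) in that of Ftl1 and at chr1:45925468-45925495 (minus strand) in that of Slc40a1.
Fth1: gtttcctgCTTCAACAGTGcttgaacgg
Ftl1: gtgtcttgCTTCAACAGTGtttgaacgg
Slc40a1: tccaacttCAGCTACAGTGttagctaag
The letters CNNNNNCAGTG, on the sense strand, were found in 802 of 9929 annotated 5′ UTRs (8.08%), and 9.23% of these 802 genes were called lower, against 10.5% of all genes.

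Total counts ran from 520960 to 2408123 in the control mRNA-seq libraries and from 821147 to 1083297 in the Ribo-seq libraries, and the median gene had a mean of 26.3 reads per mRNA-seq and 19.7 per Ribo-seq library. All 11 β-cell markers had reads in each library, and their summed level was between 88118 and 250322 RPM (the count scaled to a common library total) in mRNA-seq and between 212907 and 253499 RPM in Ribo-seq. Of 12 exocrine and duct, 9 fibroblast and endothelial and 7 blood markers none had reads in all 6 libraries, and each of these lists summed to at most 9.12 RPM in any library. Of 5 hormones of other islet cells, 1 had reads in all 6 libraries, the glucagon gene Gcg. That list summed to between 46.1 and 126 RPM in mRNA-seq and between 119 and 265 RPM in Ribo-seq. The mRNA-seq libraries differed among themselves more than the Ribo-seq libraries. Across genes, Spearman's rho of the log2 RPM was 0.93 between any pair of Ribo-seq libraries and between mRNA-seq of experiments 2 and 3, but 0.78 and 0.76 between mRNA-seq of experiment 1 and those 2, with 9963 genes, which are not independent. The pairs across assays gave 0.82 in experiment 1, 0.70 in experiment 2 and 0.73 in experiment 3. The mRNA-seq library of experiment 1 spent 45.1% of its reads on Lars2. In that of experiment 2, 175 genes stood at least 4-fold above both other mRNA-seq libraries and held 3.62% of its reads, and 111 of them were called lower below, which is 10.6% of all lower calls. In mRNA-seq of experiment 1, 310 genes stood above both others by that fold and 243 below, and 91 of the 310 were called higher. In experiment 3, 0 stood above and 253 below. Counts without an experiment are therefore given beside the lists.

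Ribosome occupancy varied widely between genes. It was taken in each experiment as the log2 ratio of the Ribo-seq to the mRNA-seq RPM of a gene and centred so that the median gene stood at 0. A value of 1 thus means an occupancy 2-fold that of the median gene. From the 10th to the 90th percentile of genes occupancy spanned 7.14-fold in experiment 1, 14.4-fold in experiment 2 and 16.5-fold in experiment 3, with SDs over genes of 1.15, 1.60 and 1.58 on the log2 scale. Among the 1025 genes with a mean count of at least 100 in each assay, for which counting noise is smaller, the SDs were 0.71, 1.07 and 1.05. Pearson's r of log2 occupancy across genes was 0.47 between experiments 1 and 2, 0.39 between 1 and 3 and 0.74 between 2 and 3. Over the 1025 deeper genes these values were 0.60, 0.49 and 0.89. Genes that share a library share its errors, so these correlations are descriptions and carry no p.

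Each gene was then tested for a ratio that differed from that of the median gene, with edgeR's quasi-likelihood test over the 6 libraries and the experiment as a block. At an adjusted p under 0.05, 1401 genes were higher (14.1% of those tested) and 1050 were lower (10.5%). Of these, 1340 and 1011 lay on the same side of the median gene in all 3 experiments, as did 51.9% of all genes. A log2 value of 2 or above was reached by 581 of the higher genes and one of -2 or below by 407 of the lower genes. With scaling to library totals in place of the median gene these counts were 1920 and 705, and with totals that leave out Ins1, Ins2 and Lars2 they were 714 and 885. The counts depended on the experiments used. Without experiment 1, 2398 genes were higher and 2057 lower, without experiment 2 these counts were 112 and 44, and without experiment 3 they were 331 and 409.

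**Figure D1:**
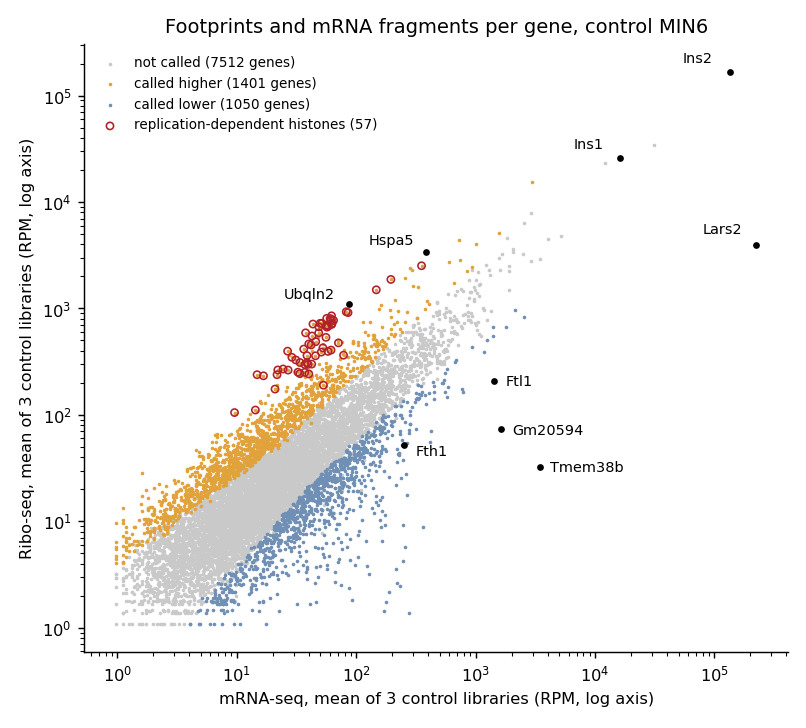
Mean RPM of each of the 9963 genes in the 3 control mRNA-seq libraries (x axis) and the 3 control Ribo-seq libraries (y axis), both on log axes, with genes called higher (1401) or lower (1050) in colour and replication-dependent histones circled. Most of the 57 histone genes lie along the upper edge of the cloud, while Lars2, Tmem38b and Gm20594 lie far below it and the insulin genes lie at its upper end.

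Replication-dependent histones had the highest occupancy of all lists. These genes encode the core and linker histones that package newly made DNA. All 57 listed genes were measured and called higher, with a median log2 occupancy of 3.29 against 0.01 over all genes tested and a range from 1.60 (H2bu2) to 3.98 (H3c8). By experiment the median was 2.42, 4.54 and 2.96. H3c8, an H3 gene, was read at 57.6, 9.12 and 46.5 RPM in mRNA-seq and at 522, 625 and 623 RPM in Ribo-seq. Its 3 Ribo-seq values were close to each other and all far above the mRNA-seq values, and its log2 occupancy was 3.98 (SE 0.52, adjusted p = 4.31e-05 by edgeR). The family medians were 3.23 for 5 H1 genes, 2.70 for 14 H2A genes, 3.40 for 13 H2B genes, 3.79 for 12 H3 genes and 3.27 for 13 H4 genes. Of the 12 highest genes by the rule for naming, 11 were histones (H3c8, H3c10, H2bc7, H3c7, H3c3, H3c1, H3c11, H2bc11, H3c6, H3c14 and H2bc13), 10 of them on chromosome 13.

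Copies of a histone gene share most of their sequence, so reads may have been divided between copies and the sum is the safer measure. Reads on the 57 genes made up 0.418% (Wilson 95% confidence interval 0.401 to 0.436%), 0.157% (0.151 to 0.163%) and 0.359% (0.352 to 0.367%) of mRNA-seq and 2.84%, 3.17% and 3.29% of Ribo-seq in experiments 1, 2 and 3. The shares did not overlap, and the ratio was 6.78, 20.1 and 9.16. An exact permutation test over the libraries, with the pairing by experiment left aside, gave a two-sided p = 0.1, the smallest that 3 against 3 allow. The 8 measured genes of 10 histone variants whose mRNAs carry a poly(A) tail took 0.198%, 0.373% and 0.351% of mRNA-seq and 0.329%, 0.363% and 0.363% of Ribo-seq reads, which overlapped (exact permutation p = 0.7). Their median log2 occupancy was 0.04 and 1 of them was called, H3f3a at 1.40 (SE 0.37, adjusted p = 0.00934 by edgeR), which did not pass without experiment 2 or 3 (adjusted p = 0.341 and 0.188). mRNA-seq was made from poly(A)-selected RNA, so for messages without a tail a high ratio and a loss of message at the selection cannot be told apart. Without experiment 2, 42 of the 57 passed the test, and without experiments 1 and 3 all 57 and 56 did.

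Outside the histones, the 15 highest called genes with a mean count of at least 20 in each assay and the same side in all 3 experiments are described. They were taken after values were seen, apart from Ubqln2, which the rule names among the 12 highest, and apart from Eif3e, Hspa5 and Srp54a, which it names as the highest of their lists. Ubqln2 encodes a ubiquitin-binding shuttle for the proteasome and has a single exon. It was read at 169, 48.6 and 44.0 RPM in mRNA-seq and at 1059, 1139 and 1086 RPM in Ribo-seq, with no overlap between the assays and the highest mRNA value in experiment 1. Its log2 occupancy was 3.71 (SE 0.48, adjusted p = 4.31e-05 by edgeR). Ffar1, the receptor through which long-chain fatty acids potentiate insulin secretion, was read at 51.8, 16.4 and 23.7 RPM in mRNA-seq and at 286, 254 and 220 RPM in Ribo-seq. Its log2 occupancy of 2.95 stood beside 3.03 for Dner, a Notch-related membrane protein, and 2.91 for Ncam1, the neural cell adhesion molecule. The Ribo-seq values of all 3 genes were above every mRNA-seq value. Called genes were picked by these same values, so a lack of overlap between the assays, here and below, is no separate support. Hspa5 (BiP), the main Hsp70 chaperone of the ER, had 620, 296 and 246 RPM in mRNA-seq and 3192, 3113 and 3855 RPM in Ribo-seq. Its log2 value was 3.0, close to the 2.99 of the ER chaperone Hsp90b1 and the 2.84 of its cytosolic relative Hsp90aa1. The other 8 were Eif3e, Eif3a, Smc3, Smc2, Ipo7, Ptprz1, Srp54a and Slitrk6, at 2.85 to 3.20. Without experiment 2, 12 of the 15 passed the test, and the chaperones Hspa5, Hsp90b1 and Hsp90aa1 did not (adjusted p = 0.0737, 0.0595 and 0.0551 by edgeR).

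**Figure D2:**
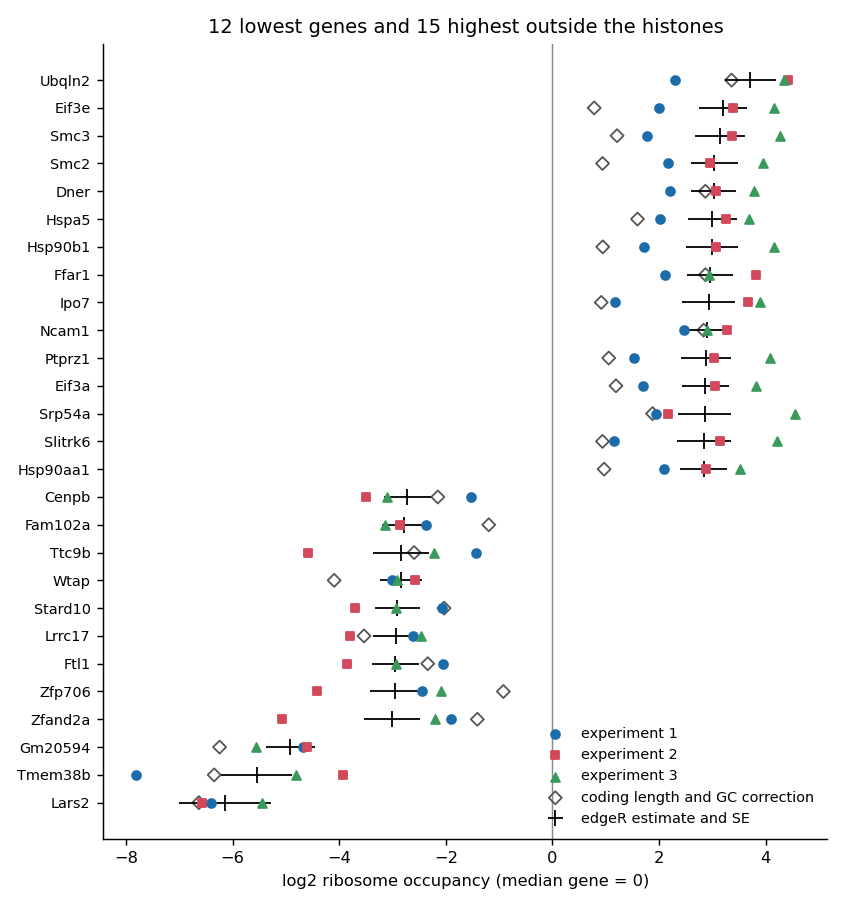
log2 ribosome occupancy (x axis, median gene at 0) of the 12 lowest genes and of the 15 highest outside the histones, with a symbol for each experiment, a bar for the edgeR estimate with its SE, and a diamond for the estimate corrected for coding length and GC content. All 3 experiments lie on the same side of 0 for each gene, because the rule that chose the genes required it. The diamonds of Ubqln2, Dner, Ffar1 and Ncam1 stay above 2, while those of Eif3e and Hsp90b1 lie below 1.

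At the low end stood Lars2, Tmem38b and Gm20594. Lars2, annotated as the mitochondrial leucyl-tRNA synthetase, had 450639, 71872 and 150983 RPM in mRNA-seq but 6758, 830 and 4182 RPM in Ribo-seq. Its log2 occupancy was -6.14 (SE 0.86, adjusted p = 6.51e-05 by edgeR), and without experiment 2 it was -5.93 (adjusted p = 0.182). Tmem38b, an ER cation channel, had a log2 value of -5.55, from 9440, 237 and 618 RPM in mRNA-seq and 53.6, 17.2 and 26.8 RPM in Ribo-seq, with by far its highest mRNA level in experiment 1. Gm20594, a predicted gene, was at -4.92. The Gm20594 transcript has a stretch of 317 bases that is 90.5% identical to the mitochondrial ribosomal RNA mt-Rnr2, and no such stretch of at least 30 bases and 90% identity to the mitochondrial genome was found in the main transcripts of the other two. Whether the mRNA-seq reads on these 3 genes came from their own messages was not tested.

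Of the remaining 9 of the 12 lowest genes, Ftl1, the ferritin light chain, is described with the iron genes below. Stard10, a lipid-binding protein that acts on insulin granules, was read at 121, 294 and 326 RPM in mRNA-seq and at 36.5, 24.7 and 51.7 RPM in Ribo-seq. It was lower in each Ribo-seq library than in any mRNA-seq library, at a log2 value of -2.91 (SE 0.43, adjusted p = 9.78e-05 by edgeR). Wtap, a subunit of the enzyme that methylates adenosines of mRNA, had 207, 123 and 335 RPM in mRNA-seq and 32.9, 22.6 and 53.5 RPM in Ribo-seq, with occupancies of -3.0, -2.58 and -2.92 that were nearly equal in the 3 experiments. Cenpb, which binds centromeric repeats, was at -2.73, and Lrrc17, Fam102a, Zfp706, Zfand2a and Ttc9b were between -3.01 and -2.79. The last 3 were lowest in experiment 2, at -4.42, -5.08 and -4.58. Without that experiment their adjusted p-values by edgeR were 0.0533, 0.0898 and 0.146, and 6 of the 12 lowest genes passed the test.

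The iron genes differed among themselves. Iron regulatory proteins bind the element in the 5′ UTR of ferritin mRNA when iron is low and hold ribosomes off, whereas elements in the 3′ UTR of the transferrin receptor mRNA act on its stability. Ftl1 was read at 710, 1931 and 1663 RPM in mRNA-seq and at 218, 146 and 264 RPM in Ribo-seq. Fth1, the heavy chain, had 123, 337 and 300 RPM in mRNA-seq and 48.7, 35.5 and 71.1 RPM in Ribo-seq. For both ferritins each Ribo-seq value was below each mRNA-seq value, and occupancy was -2.95 (SE 0.44, adjusted p = 0.000141 by edgeR), 7.71-fold below the median gene, for Ftl1 and -2.48 (SE 0.42, adjusted p = 0.000403), 5.56-fold below it, for Fth1. Together they held 0.0833%, 0.227% and 0.196% of mRNA-seq and 0.0267%, 0.0182% and 0.0335% of Ribo-seq reads (exact permutation p = 0.1, the smallest possible). Each ferritin was already apart between the assays, so this p was fixed in advance and is no separate support. Slc40a1, the iron exporter ferroportin, also carries an element in the 5′ UTR, and its log2 value was 0.80 (SE 0.57, adjusted p = 0.312 by edgeR). Slc40a1 rested on few reads, at 5.40 to 11.5 RPM in mRNA-seq. Slc11a2, an iron importer, was at -0.56 (adjusted p = 0.483). Tfrc, the transferrin receptor, was called higher at 1.88 (SE 0.42, adjusted p = 0.00286), from 242, 74.8 and 37.0 RPM in mRNA-seq and 521, 430 and 249 RPM in Ribo-seq. It did not pass without experiment 2 or 3 (adjusted p = 0.211 and 0.121 by edgeR). Without experiment 2 the ferritins were at -2.49 (Ftl1, adjusted p = 0.0674 by edgeR) and -2.03 (Fth1, adjusted p = 0.0930).

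mRNAs with regulatory upstream reading frames spanned a similar range. Of 16 measured, 3 were higher (18.8%, against 14.1% of all genes) and 4 lower (25%, against 10.5%), and their median was 0.32. The lower ones were Tfeb, a regulator of lysosomal genes, at -2.72 with a mean of 2.67 footprints per library, Ddit3 (CHOP) and Atf5, both transcription factors of the stress response, at -2.43 each, and Slc35a4 at -1.52. Atf5 had 88.3, 170 and 220 RPM in mRNA-seq and 36.5, 17.2 and 54.5 RPM in Ribo-seq, with no overlap (SE 0.43, adjusted p = 0.000556 by edgeR). Ddit3 was scarce in unstressed cells, at 17.3, 15.2 and 17.4 RPM in mRNA-seq and 1.22, 2.15 and 7.38 RPM in Ribo-seq, so that its 3 occupancies of -4.17, -2.96 and -1.52 rest on a mean of 3.67 footprints per library. Atf4, the main effector of the integrated stress response, was read at 113, 207 and 274 RPM in mRNA-seq and at 105, 118 and 150 RPM in Ribo-seq, which overlapped, and its log2 value of -0.86 did not pass the test (adjusted p = 0.0917). Ppp1r15a (GADD34), at -0.82, and Cebpb, at -0.48, did not pass either. The higher ones were Eprs, a tRNA synthetase, at 2.29, Ibtk at 1.42 and Cdkn1b, an inhibitor of the cell cycle, at 1.21. The remaining members Azin1 (1.01), Ifrd1 (0.94), Amd1 (0.67), Slc7a1 (0.65), Mdm2 (0.34) and Ppp1r15b (0.29) were not called. Without experiment 3, 1 of the 16 was higher and 3 lower. Without experiment 2 none of the 16 passed, and Atf5 was at -1.97 (adjusted p = 0.102 by edgeR). Over all genes, log2 occupancy had a Spearman's rho of -0.15, -0.02 and 0.02 with the number of ATG triplets in the annotated 5′ UTR in experiments 1, 2 and 3, so the sign differed between experiments.

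Antizyme mRNAs, listed here with the genes of polyamine synthesis, are read through a frameshift. Selenoprotein mRNAs depend on the reading of UGA as selenocysteine. Of 9 polyamine genes 3 were lower (33.3%, against 10.5% of all genes) and 0 higher, namely the antizymes Oaz1 at -2.04 and Oaz2 at -1.90 and the first enzyme of the pathway, Odc1, at -1.30 (adjusted p = 0.00153, 0.00150 and 0.0155 by edgeR). Oaz1 had 205, 730 and 779 RPM in mRNA-seq and 128, 136 and 174 RPM in Ribo-seq. Of 19 selenoproteins 3 were lower (15.8%), Selenow at -1.93, Selenok at -1.50 and the glutathione peroxidase Gpx4 at -1.31, and Selenot was higher at 1.32. The list median was -0.62, and 8 of the 19 lay below the median gene in all 3 experiments against 3 above it, as did 2515 below and 2652 above of all 9963 genes. Without experiment 2 or without experiment 3 no gene of these 2 lists passed the test.

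Ribosomal protein mRNAs had a median below that of all genes over the 3 experiments. They begin with a pyrimidine tract through which growth signals control their translation. The 79 genes took 2.09%, 5.54% and 5.07% of mRNA-seq and 3.39%, 3.58% and 3.64% of Ribo-seq reads, so that their share was higher in Ribo-seq in experiment 1 and lower in experiments 2 and 3. The medians of log2 occupancy were 0.45, -0.68 and -0.71, and 0 genes were called higher and 7 lower (8.86%, against 10.5% of all genes), with a median of -0.31 overall. The 7 were Rplp1, Rplp0, Rps20, Rps12, Rpl39, Rpl41 and Rpsa, from -1.67 to -1.18. Without experiment 1, 48 were lower and 1 higher, and without experiment 2 or 3 none was called. Ribosomal protein genes have many processed copies in the genome, and reads shared with them were not traced. Rplp0, a stalk protein of the large subunit, had 925, 2111 and 2339 RPM in mRNA-seq and 631, 669 and 725 RPM in Ribo-seq, and its occupancy was below the median gene in each experiment. The annotated transcript started with C and 4 pyrimidines in 14 of the 79 genes (17.7%) and in 2.33% of all genes. The median of the 232 genes with such a start was 0.05 and that of the others 0.01.

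Of 39 initiation factors 9 were higher (23.1%, against 14.1% of all genes) and 2 lower (5.13%, against 10.5%). The higher ones ran from Eif3c at 1.17 to Eif3e at 3.20, both subunits of the scaffold factor eIF3. In the fit corrected for coding length and GC content described below, only Eif3a and Eif5b of these stayed called. Eif3e and Eif3c were then at 0.78 and 0.17 (adjusted p = 0.0961 and 0.726 by edgeR). Of the 39 factors 5 were higher and 2 lower in that fit. Its lower ones were Eif4e2 at -1.24 and Eif2b5 at -1.14 (adjusted p = 0.0483 and 0.0340 by edgeR). The 2 that were lower before the correction were Eif4ebp1 at -2.13 and Eif4ebp2 at -1.83. Both are repressors that sequester the cap-binding protein when growth signals are low. Eif4ebp1 had 30.7, 26.1 and 37.8 RPM in mRNA-seq and 10.96, 1.08 and 17.5 RPM in Ribo-seq, a mean of 9.67 footprints per library. Neither repressor passed without experiment 2 (adjusted p = 0.272 for Eif4ebp1 and 0.0925 for Eif4ebp2 by edgeR) or in the fit corrected for coding length and GC content described below, where they were at -0.84 and -0.02 (adjusted p = 0.286 and 0.987). The elongation factors Eef1a1 and Eef2 were at 1.20 (SE 0.45, adjusted p = 0.0529 by edgeR) and -0.05 (SE 0.45, adjusted p = 0.948). Of the 13 measured mRNAs of elongation factors and other pyrimidine-tract genes 3 were higher (23.1%), Npm1 at 2.57, Nap1l1 at 1.70 and Pabpc1 at 1.13, and none was lower, with Tpt1 lowest at -0.90. Of 35 aminoacyl-tRNA synthetases 8 were higher (22.9%, against 14.1% of all genes), with Dars highest at 2.91, and Lars2 was lower. Without experiment 2, 2 initiation factors, 1 gene of the elongation list and 1 synthetase were higher and none was lower, and without experiment 3 these lists had 2, 1 and 2 higher.

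The insulin messages were not called in either direction. Ins1 and Ins2 together made up 6.597%, 20.9% and 17.5% of mRNA-seq and 19.1%, 21.1% and 18.0% of Ribo-seq reads, a mean of 15.0% ± 7.49 and 19.4% ± 1.59 (SD, n = 3 each, exact permutation p = 0.4). The 2 shares were nearly equal in experiments 2 and 3, with ratios of 1.01 and 1.03, and the Ribo-seq share was 2.89 times the mRNA-seq share in experiment 1, whose mRNA-seq library gave 45.1% of its reads to Lars2. The log2 occupancy of Ins2 was 1.13, -0.17 and -0.27 by experiment and 0.22 in the test (SE 0.73, adjusted p = 0.851 by edgeR), and that of Ins1 was 1.62, 0.19 and -0.03 and 0.58 (SE 0.56, adjusted p = 0.473). Iapp, which encodes the amyloid peptide that is released with insulin, was at -0.06, and Chga, the granule protein chromogranin A, at 0.75. Reads may have been divided between Ins1 and Ins2, which are similar.

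Other granule genes spread to both sides. Of the 30 genes of the insulin and granule list 8 were higher (26.7%, against 14.1% of all genes) and 3 lower, with a median of 0.45. The granins Chgb, Scg2 and Scg3, which condense the granule core, were at 2.03, 2.23 and 2.16. Scg2 had 4400, 2794 and 1756 RPM in mRNA-seq and 14368, 15647 and 16592 RPM in Ribo-seq, and the groups were far apart. The prohormone convertase Pcsk1 was at 1.77 while its partner Pcsk2 was at 0.17 (adjusted p = 0.804 by edgeR). Among exocytosis genes, Snap25 was highest at 2.44, Cadps was at 1.77 and Sytl4 at 1.16, while Vamp2 and Stx1a, the SNARE partners of Snap25, were lower, at -1.24 and -2.0. The zinc transporter Slc30a8 was higher at 1.12. Nnat, a small ER membrane protein that aids the signal peptidase on preproinsulin, was lower at -1.70, from 1167, 3459 and 2939 RPM in mRNA-seq and 747, 910 and 863 RPM in Ribo-seq. Other members that were not called had values of 1.08 for Cpe, 0.94 for Resp18, 0.50 for Vgf, 0.50 for Rab27a, 0.47 for Scg5, 0.43 for Ptprn2, -0.23 for Ucn3, -0.28 for Pam, -0.37 for Ptprn, -0.47 for Syt7, -0.51 for Scgn, -0.52 for Rab3a and -0.63 for Pcsk1n. Without experiment 2 none of the 30 passed the test, and Scg2 was then at 2.16 (adjusted p = 0.335 by edgeR).

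β-cell transcription factors had a median of 0.64, with 5 of 18 higher (27.8%, against 14.1% of all genes) and 1 lower (5.56%, against 10.5%). The higher ones were Rfx6 at 2.06, Isl1 at 2.04, Neurod1 at 1.86, Nkx6-1 at 1.30 and Mnx1 at 1.20. Isl1, which maintains islet identity, had 144, 69.3 and 50.7 RPM in mRNA-seq and 402, 327 and 444 RPM in Ribo-seq without overlap. Mafa, an activator of the insulin gene, was the lower one at -1.35, from 532, 869 and 1381 RPM in mRNA-seq and 318, 290 and 702 RPM in Ribo-seq, which overlapped. Pdx1 was at 0.27 (SE 0.37, adjusted p = 0.621 by edgeR). Slc2a2, the glucose transporter of the mouse β cell, was at 1.81 and did not pass without experiment 2 or 3 (adjusted p = 0.318 and 0.0604 by edgeR). Without experiment 2 or without experiment 3 none of the 18 factors passed the test.

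Several other lists had a larger share of higher calls than the 14.1% of all genes. Among ER chaperones and disulfide isomerases 10 of 31 were higher (32.3%) and 0 lower. Besides Hspa5 and Hsp90b1 the higher ones were Pdia3 at 2.09, Dnajc3 at 1.98, Erp44 at 1.94, Tmx3, Dnajc10, Dnajb9, Canx and Uggt1. The corresponding counts were 14 of 42 higher (33.3%) and 1 lower for splicing factors (Hnrnpa2b1 highest at 2.82, Luc7l lowest at -2.02). Sterol synthesis had 7 of 22 higher (31.8%) and 1 lower (Hmgcs1 highest at 2.68). Cyclins and mitotic genes had 9 of 34 higher (26.5%) and 2 lower (Bub1 highest at 2.75). The proteasome had 9 of 39 higher (23.1%) and 0 lower (Psmc6 highest at 2.80). DNA replication had 9 of 44 higher (20.5%) and 0 lower (Pola1 highest at 2.93). Lysosomal proteins, with 7 of 39 higher (17.9%) and 0 lower (Lamp2 highest at 1.98), were near the share of all genes. Mitochondrial lists had few higher calls, with 2 of 78 higher and 2 lower for the nuclear-encoded respiratory chain and 1 of 73 higher and 7 lower for mitochondrial ribosomal proteins. The translocon and its partners had 2 of 35 higher, Srp54a and Sec62, glycolysis and lactate 2 of 19 higher (Slc16a1 and Slc2a2) and 1 lower (Ldha at -1.55), the cytoskeleton 2 of 23 higher (Actn4 and Actn1) and 1 lower (Tmsb10), and immediate early genes 2 of 16 higher (Klf6 and Klf10) and 1 lower (Jund at -1.49). Actb and Gapdh, often used as references, were at 0.87 and 0.20 and were not called. Without experiment 2 at most 1 gene of each of these lists passed the test, and without experiment 3 at most 4.

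**Figure D3:**
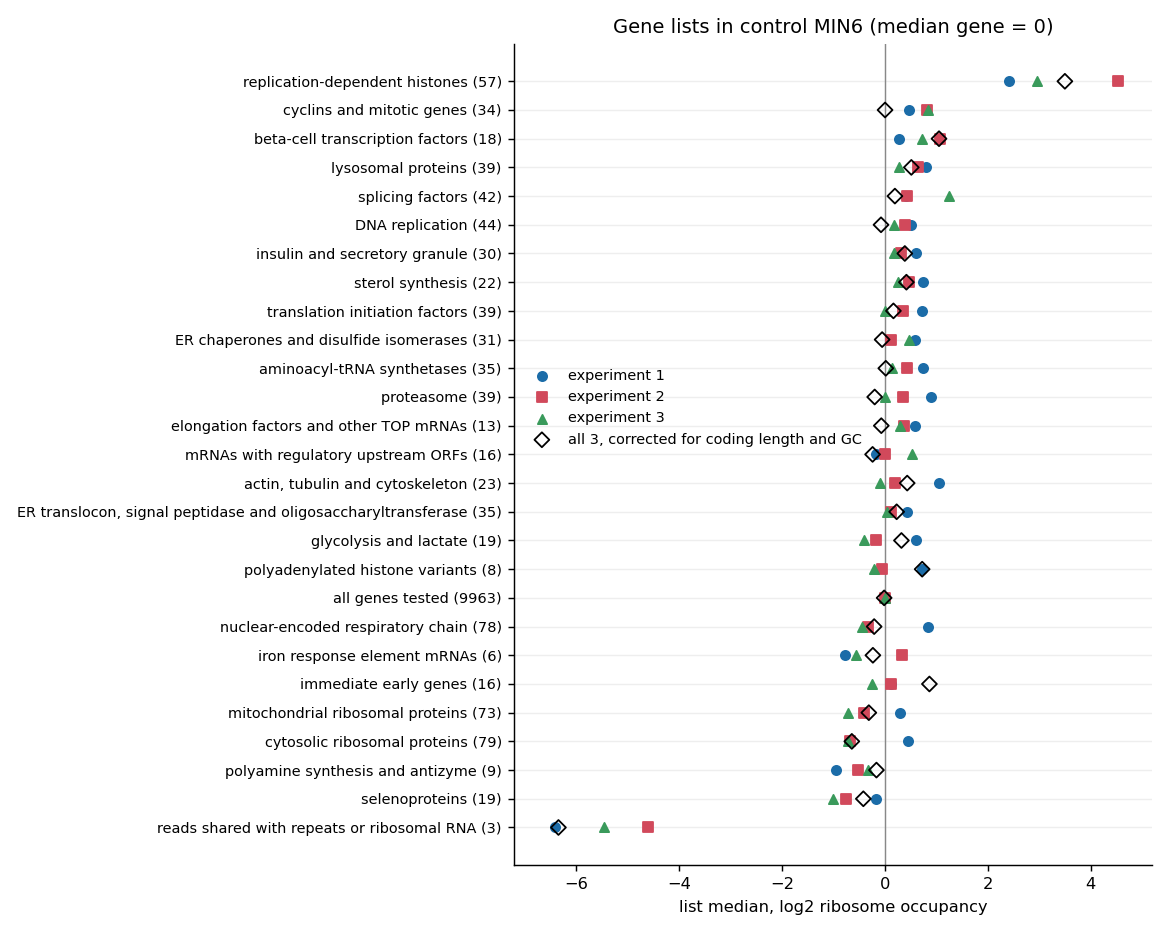
Median log2 ribosome occupancy (x axis, median gene at 0) of each gene list (y axis, measured genes in parentheses), by experiment and, as a diamond, over all 3 experiments with the correction for coding length and GC content. Replication-dependent histones stand apart on the right (2.42, 4.54 and 2.96), and cytosolic ribosomal proteins are above 0 in experiment 1 (0.45) and below it in experiments 2 and 3.

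Occupancy followed the base composition of the transcript, and more so in experiments 2 and 3. Spearman's rho between log2 occupancy and GC content across 9956 genes was -0.09, -0.43 and -0.60 in experiments 1, 2 and 3. In the fifth of genes with the lowest GC content (33.9 to 44.5%) the medians were 0.18, 0.98 and 1.72, and in the fifth with the highest (56.2 to 73.3%) they were -0.12, -0.76 and -0.92. Of the first group 31.98% of genes were called higher and 3.41% lower, and of the last 3.97% and 22.3%. The relation moved with the mRNA-seq libraries, in which rho of the RPKM (RPM per kilobase of transcript) with GC content was 0.18, 0.38 and 0.46, while it was 0.10, 0.12 and 0.12 in Ribo-seq. Whether this is a property of the messages or of the library preparation was not tested. For this reason the fit was repeated with the smooth trend over GC content removed in each experiment and with footprints set against the coding length and mRNA fragments against the whole transcript, which was chosen after seeing the data and is called the corrected fit here. It gave 724 higher (7.27%) and 719 lower (7.22%) genes of 9956. Of the 1401 genes higher before 412 remained, of the 1050 lower 425 remained, and 5 genes were called in opposite directions.

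The groups differed in how they came through the correction. Their counts stand beside 7.27% of all genes higher and 7.22% lower in this fit. All 57 replication-dependent histones remained higher, with a median of 3.50. The ferritins remained lower, Ftl1 at -2.34 (adjusted p = 0.00125 by edgeR) and Fth1 at -2.43 (adjusted p = 0.00125), while Tfrc was at 0.48 (adjusted p = 0.293). Atf5 and Ddit3 remained lower at -1.56 and -2.02, and Atf4 was then called lower at -1.20 (adjusted p = 0.0159). Of the 79 ribosomal proteins 20 were lower and 1 was higher, with a median of -0.64, and Rps12, for example, was at -1.94. Of the 18 β-cell transcription factors 8 were higher and 0 lower, with a median of 1.05. Pdx1, Insm1, Nkx2-2, Foxo1 and Mlxipl were added, and Rfx6 and Neurod1 were lost. Lysosomal proteins had 7 of 39 higher as before, while the share of all genes fell from 14.1% to 7.27%. Only Man2b1 was in both sets of lysosomal genes. In contrast, the proteasome had 0 of 39 higher and 1 lower, and DNA replication 1 of 44 and 2. Cyclins and mitotic genes had 2 of 34 higher and 1 lower, and aminoacyl-tRNA synthetases 0 of 35 and 1. None of these shares was above that of all genes. The ER chaperones had 5 of 31 higher and 2 lower. Hspa5 was at 1.60 (adjusted p = 0.00624 by edgeR) while Hsp90b1 was at 0.94 (adjusted p = 0.0633). Of the granule genes Snap25, Chgb, Scg3 and Rab27a were higher and Pam and Scgn lower, and Nnat and Vamp2 were at 0.37 and 0.64 and no longer below the median gene. Of the 15 highest genes outside the histones 10 remained called, and Ubqln2, Dner, Ffar1 and Ncam1 were at 3.36, 2.87, 2.87 and 2.84.

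Transcripts in which the coding sequence takes a larger share had higher occupancy in all 3 experiments. Spearman's rho with the coding share was 0.28, 0.16 and 0.06, and within 20 bins of GC content it was 0.32, 0.36 and 0.36. From the fifth with the lowest coding share (up to 30.9%) to the fifth with the highest (from 73.3%) the medians within GC bins went from -0.53, -0.76 and -0.72 to 0.51, 0.68 and 0.51. When footprints were set against coding length rho turned to -0.33, -0.28 and -0.35. That setting subtracts the log2 coding share itself, so a lower rho is built in. Without it, footprints of the coding part are compared with fragments of the whole transcript, which ties occupancy to the coding share. The direction therefore depends on how length is treated, and neither sign can be read as a property of the messages. Spearman's rho with coding length was 0.05, 0.29 and 0.29. For 3′ UTR length rho was -0.26, 0.05 and 0.17 and for 5′ UTR length -0.13, 0.03 and 0.09, so experiment 1 had the opposite sign to experiments 2 and 3. For the GC content of the 5′ UTR rho was -0.15, -0.16 and -0.13, and within bins of transcript GC content it was -0.13, -0.08 and -0.02. Spearman's rho with the mean mRNA-seq RPKM was 0.06, -0.33 and -0.40, but the mRNA level is also the denominator of occupancy. Start codons preceded by A or G at 3 bases upstream, the favoured context for initiation, were found in 8543 genes with a median of 0.03, against -0.16 for 1338 other genes, a difference that had the same sign in each experiment (medians of -0.18, -0.16 and -0.13 for the others against 0.00, 0.01 and 0.01). Genes with a single exon, histones left out, had a median of 0.02 over 239 genes, and 18.0% of them were called higher.

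**Figure D4:**
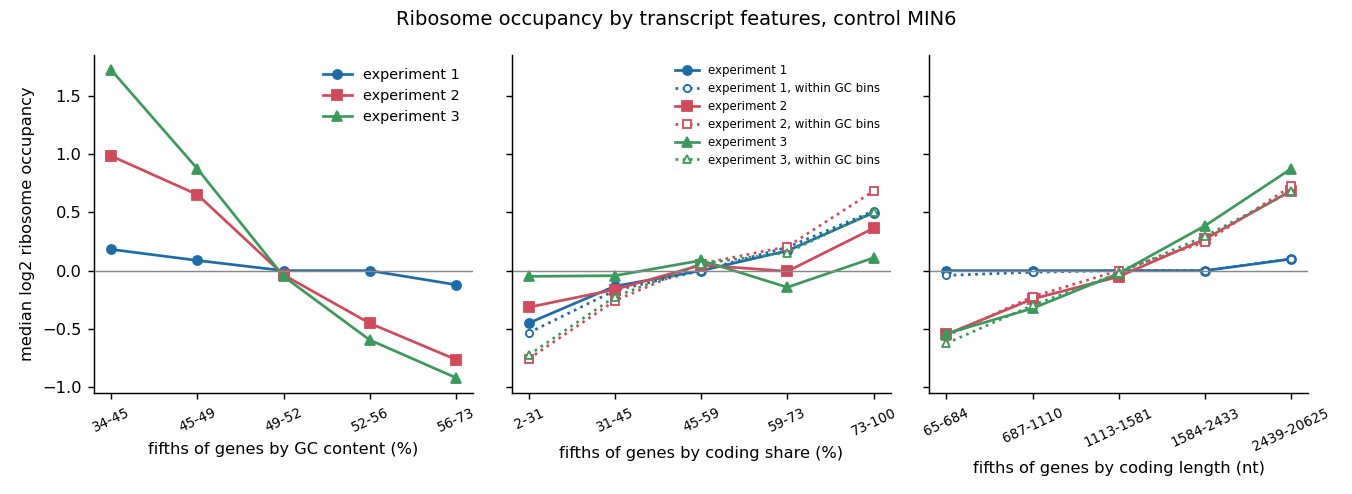
Median log2 ribosome occupancy (y axis) in 5 equal groups of genes by GC content, coding share and coding length of the transcript (x axes), with a line for each experiment and dotted lines for values taken within 20 bins of GC content. The GC slope is shallow in experiment 1 (0.18 to -0.12) and steep in experiment 3 (1.72 to -0.92), and within GC bins the 3 lines for coding share nearly coincide.

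The order of genes was shared with CPA-treated cells, which came from other libraries of the same experiments. The same test in CPA1 called 1420 genes higher (14.9%) and 1088 lower (11.4%) of 9527, and in CPA18 1694 higher (20%) and 1154 lower (13.6%) of 8476. Of the genes higher in control and tested in CPA1, 984 of 1348 (73.0%) were called higher again, as were 1005 of 1279 (78.6%) in CPA18. Of the lower genes, 609 of 931 (65.4%) and 549 of 850 (64.6%) were called lower again. No gene was called in the opposite direction. Spearman's rho of the log2 values with those of control was 0.84 over 9027 genes for CPA1 and 0.83 over 8103 genes for CPA18, and the GC relation of the mRNA-seq libraries is common to all of them, with rho from 0.26 to 0.43 in the 6 CPA mRNA-seq libraries. Histones were at medians of 2.81 and 3.19, and Hspa5 was at 2.84 and 3.01.

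Most of the 12 lowest genes, like other low genes, were closer to the median gene in the CPA libraries. Low genes were picked by their control values, so a shift towards 0 in other libraries is not particular to those named here. Zfand2a was at -1.10 in CPA1 and -1.55 in CPA18, against -3.01 in control, and Cenpb at -1.43 in both, against -2.73. In CPA1 Lrrc17 and Wtap were not closer, both at -3.25. Atf5 was at -0.49 in CPA1 and -0.56 in CPA18, against -2.43 in control, and Ddit3 at -0.17 and -0.58, against -2.43. Atf5 was -0.65, -0.52 and -0.32 in the 3 experiments of CPA1, each above its control value in the same experiment. Atf4 was at 0.22 and -0.34, against -0.86. Ftl1 was at -1.72 and -1.14, against -2.95, and Fth1 at -1.73 and -1.15, against -2.48, and both were still called lower. Tmem38b and Gm20594 were at -1.64 and -0.50 in CPA18, against -5.55 and -4.92, and were not called there. By experiment Tmem38b was at -5.18, -0.68 and 0.29 in CPA18, so that it stayed very low in experiment 1. The differences between treatments were not tested here.

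**Figure D5:**
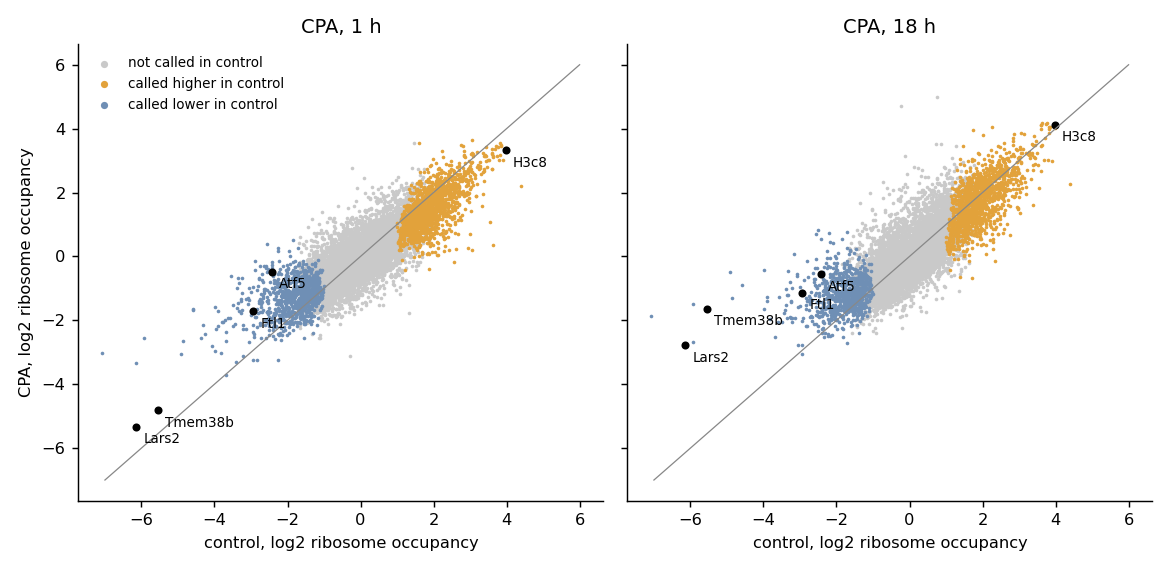
log2 ribosome occupancy of each gene in control (x axis) against CPA for 1 h (left) and 18 h (right, y axes), with the line of equal values and with genes called higher or lower in control in colour. Nearly all genes called in control keep their side of 0, and Atf5 lies above the line in both panels.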

How the data were processed

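Control MIN6 cells were assayed by mRNA-seq and Ribo-seq in 3 experiments. The authors kept reads of 15 to 40 nt, aligned them with Bowtie2 to GRCm38 RNA sequences at 95% identity or more, and deposited read counts per transcript. The version of Bowtie2 is not given in the sources used here. Beside the counts, the authors deposited RPM, the count scaled to a common total of the library, and RPKM, which is that RPM per kilobase of transcript. The deposited counts were used here, RPM was computed from their sums by gene, and the deposited RPKM served as a check. Counts of 30741 transcripts were summed by RefSeq gene (31 had no match, and 7 of the genes tested had none), and genes with a read in all 6 control libraries were kept.

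Ribosome occupancy was tested with edgeR 4.0.16 (quasi-likelihood, experiment as block, offsets placing the median gene at 0, Benjamini-Hochberg adjustment over all 9963 genes, threshold 0.05). The residual degrees of freedom were 2, so the spread was largely shared across genes. On simulated counts for this comparison (9425 genes), 85.1% of genes at a true log2 of 2 and 53.5% at -2 were called, but 6.12% at 1 and 7.32% at -1, and 2 of 9245 unchanged genes were. The blocks come from the lysate that both assays share, and deviations of same-numbered libraries correlated at 0.12, 0.05 and 0.14. Transcript features came from RefSeq on GRCm38, motif positions from pysam 0.24.0 and mitochondrial matches from BLAST 2.17.0 (at least 30 bases at 90% identity). The p-values of summed shares are from exact permutation tests over libraries, two-sided. These tests treat the libraries as unpaired, although both assays of an experiment share a lysate. Confidence intervals cover counting error only.

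Named genes were the 12 highest and 12 lowest called genes with a mean count of at least 20 in each assay and the same side in all 3 experiments, the highest and lowest of each list, all members of the insulin, iron, upstream reading frame and repeat (Lars2, Tmem38b, Gm20594) lists, and Ins1, Ins2, Eef1a1, Eef2, Actb and Gapdh. The 15 highest genes outside the histones, the called members listed by name and single genes such as Pdx1, Isl1, Oaz2 and Rplp0 were chosen after their values were seen. The genes and lists were chosen with earlier results of these data known. Values of a few list members are not reported here.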

Additional observations from a re-analysis of the deposited data

How the results depend on the processing

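Which experiments were used moved the counts most. Leaving out 1 experiment gave 112 to 2398 higher and 44 to 2057 lower genes, against 1401 and 1050, with the lowest counts without experiment 2. Of the 108 named genes that were called, 108 passed without experiment 1, 34 without experiment 2 and 57 without experiment 3. Without the replicate block 1223 genes were higher and 1039 lower. Scaling to library totals gave 1920 and 705, and shifted the median gene to 0.25. Totals without Ins1, Ins2 and Lars2 gave 714 and 885. The correction for coding length and GC content, added after seeing the data, gave 724 and 719, a mean count of at least 10 in each assay 989 and 682 of 6334 genes, and one of at least 100, also added, 167 and 64 of 1025 genes. DESeq2 called 1110 and 791, with 966 genes left without an adjusted p. TMM, DESeq2 size factors, limma, 1 transcript per gene and all 18 libraries kept both counts within 1.5 times. Among named genes that were called, 4 values changed sign, while values of genes that were not called changed sign under several settings. Of the called ones, Zfp706 was at 0.22 and Vamp2 at 0.29 with footprints per coding length, and Nnat was at 0.37 and Vamp2 at 0.64 with the added correction. The mean SD over genes was 1.44, and 0.94 at 100 counts. The mean rho with GC content was -0.37, and 0.0096 within GC bins, where a value near 0 is built in. For coding share it was 0.17, but -0.32 per coding length, a setting that subtracts the log2 coding share itself, and 0.35 within GC bins. For coding length it was 0.21, but -0.045 per coding length and 0.36 at 100 counts. For 3′ UTR length it was -0.013, but 0.33 per coding length, and for the GC content of the 5′ UTR -0.15, but -0.076 within GC bins. The cause of the other changes was not tested. Depth limited low genes: 1300 genes had a library with a single read.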
